A study of Mus musculus with 8 samples.

Results

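The comparison described here is that of SA tumours at day 60 with SA tumours at day 20, the widest time span sampled within 1 genotype of a mouse melanoma series. It holds 4 of the 8 arrays of the series, 2 at each day, chosen by their titles, and covers all 23978 probes with a gene symbol among 25697. Every mouse in the series was of strain C57BL/6 and carried BrafCA, a conditional allele of mutant Braf, and Tyr::CreER, which drives a tamoxifen-dependent recombinase from the tyrosinase promoter in melanocytes. All received 4-hydroxytamoxifen painted on the right ear, right flank and tail on postnatal days 2, 3 and 4. SA mice carried Ifnar1SA, which encodes a type I interferon receptor chain known for resisting its own degradation. Whole tumours were taken 60 or 20 days after tamoxifen. The other 4 arrays, SA tumours at day 38 and WT tumours (Ifnar1+/+) at day 38, 2 of each, served to estimate the spread between arrays. No WT tumour was sampled at day 60 or day 20, so time and genotype cannot be set against each other. The labels do not say whether replicate arrays came from separate mice, so a p-value here covers the array-to-array spread and nothing beyond it.

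Mutant Braf drives the MAPK cascade, in which RAF, MEK and ERK kinases act in turn, and in melanocytes an early burst of division is commonly followed by an arrest in which the Cdkn2a locus takes part. The type I interferon receptor, built from Ifnar1 and Ifnar2, signals through STAT factors to interferon-stimulated genes, whose promoters share the interferon-stimulated response element. A tumour dissected whole from young skin also holds epidermis, hair follicles, muscle, fat and immune cells, and the hair follicles of young mice pass through cycles of growth and rest.

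Values are log2 intensities corrected for background, each gene read from its brightest probe, and differences are day 60 minus day 20 on that scale. The 2 day 60 arrays correlated at 0.970 across genes, with 574 genes over 2-fold apart, and the 2 day 20 arrays at 0.944, with 1145 genes over 2-fold apart. Replicate 1 of day 20 stood apart. The mean of 6 melanocyte markers was 12.86 and 13.37 on the day 60 arrays, against 9.24 on replicate 1 and 12.56 on replicate 2 of day 20. The labelled tissue was therefore marked on every array, but weakly on that one. Of 169 named genes with a difference, 66 shrank by over 1.5 times or changed sign without replicate 1 of day 20, against 5 without replicate 2 of day 20, and 19 and 11 without replicates 1 and 2 of day 60. Of 5 keratinocyte markers, Krt14, Krt10 and Lor lay within 0.1 of the highest value of the scale (16.13) on all 4 arrays, where differences could not show. The other 2, Krt5 and Krt1, lay between 11.72 and 13.80. The mean of 3 endothelial markers lay between 9.17 and 9.42 on all 4 arrays. The Y-linked gene Eif2s3y read 11.80 and 11.69 at day 60 and 11.55 and 11.37 at day 20, and Xist 6.84 and 7.56 at day 60 and 7.11 and 7.30 at day 20. These 4 arrays were thus alike in sex-linked transcripts, whereas the SA arrays of day 38 read 6.11 and 6.20 for Eif2s3y and 9.69 and 9.20 for Xist.

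At day 60, SA tumours read higher than at day 20 for genes of MAPK output, pigment and neural crest. They read lower for genes of the cornified epidermis, hair shaft, muscle, mitosis and the interferon response, but no single gene passed the test. The median differences of the MAPK output, pigment, neural crest and interferon-stimulated lists were 1.20, 1.24, 0.97 and −0.87. Without replicate 1 of day 20 they were 0.59, 0.41, 0.47 and −0.34. Those of the cornified, hair and mitosis lists were −1.09, −2.92 and −1.25 without that array, in place of −1.05, −2.29 and −0.81. The muscle median was −2.41, or −0.92 without replicate 2 of day 60. Of 11661 genes and unnamed probes tested, 0 (0%) reached a Benjamini-Hochberg adjusted p under 0.05 in limma, and the smallest adjusted p was 0.0756. At an unadjusted limma p under 0.05 there were 2741 (23.5%), of which 1612 were higher (13.8%) and 1129 lower (9.68%) at day 60. Chance alone would give 583 on average. Where genes vary together, a chance count can lie far from that average. At an adjusted p under 0.1, a threshold chosen after seeing the data, there were 245 higher (2.1%) and 190 lower (1.63%). A gene is called apart below where both day 60 arrays lay on 1 side of both day 20 arrays and the means differed by at least 2-fold. By that description 489 genes (4.19%) were apart and higher and 491 (4.21%) apart and lower at day 60, around a median difference of 0.03 over all genes.

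The count of calls depended on the pair of day 20 arrays. Without replicate 2 of day 20, 915 genes were called, 497 higher (4.26%) and 418 lower (3.58%) at day 60. Without replicate 1 of day 20, 6 were called (0.0515%), of which Adh7, Lrrc57 and Aqr were higher and Defb8, Mup2 and an unnamed probe lower, genes chosen here for that result. In each of these fits the day 20 array left alone was assumed to vary like the other groups. Without either day 60 array 0 genes were called, with 1864 and 2083 at an unadjusted p under 0.05.

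**Figure D1:**
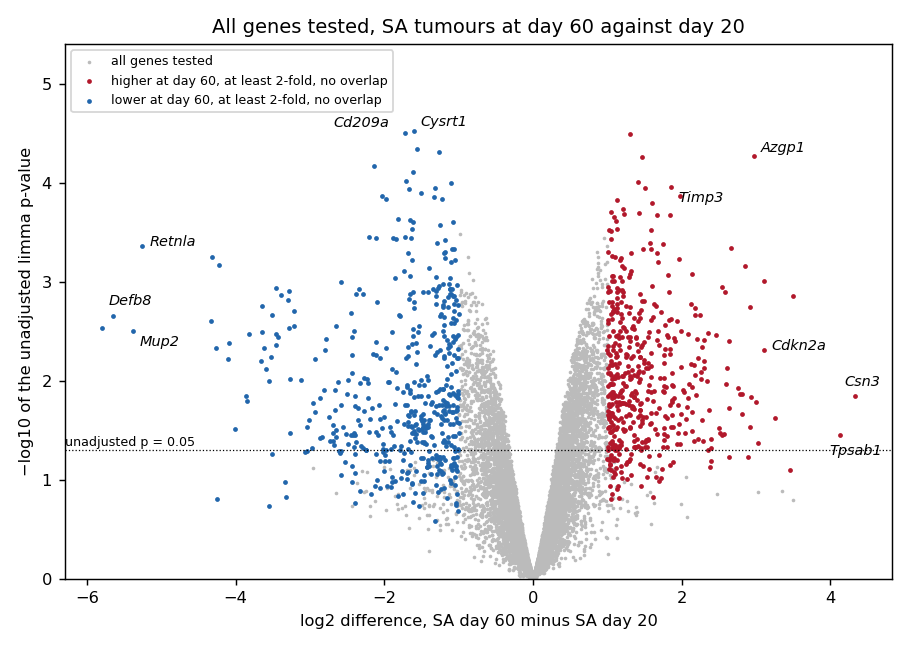
Each point is 1 of 11661 genes or unnamed probes, with the log2 difference (day 60 minus day 20) on the x axis and −log10 of the unadjusted limma p-value on the y axis; red and blue mark the 489 higher and 491 lower genes that were at least 2-fold apart without overlap. Many points lie above the line of unadjusted p = 0.05, and the differences of largest size, such as Defb8 and Retnla, do not have the smallest p.

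The genes with the smallest p among those higher at day 60 held a protease inhibitor, a transporter, a transcription factor and a retinoid enzyme. Azgp1, a secreted glycoprotein that promotes the release of fat stores, read 9.26 and 10.19 at day 60, against 6.97 and 6.53 at day 20, a difference of 2.98 ± 0.32 (SE; limma, Benjamini-Hochberg adjusted p = 0.076). Both day 60 arrays lay well above both day 20 arrays, but the day 20 values were below the filter level of 7.24, where a size is poorly determined, and a second, dimmer probe of Azgp1 differed by only 0.37. Timp3, an inhibitor of matrix metalloproteinases, read 15.16 and 15.02 at day 60 and 13.38 and 13.08 at day 20, which is 3.63-fold higher. Stat3, the factor that carries signals of interleukin-6 and related cytokines, read 14.08 and 13.97 at day 60 and 12.75 and 12.87 at day 20. Neither gene's groups overlapped, and the day 38 arrays of Stat3, at 12.92 and 12.64, lay at the day 20 level. The 3 probes of Stat3 past the filter differed by 0.40 to 1.21. Slc5a3, a myo-inositol transporter, was 3.95-fold higher at day 60, and Aldh1a3, which makes retinoic acid, 3.18-fold. The remaining genes named by the rule in this direction were Cstdc4, Zfp157, Rnft2, Vezt and Ehd1, with differences of 1.41, 1.14, 1.61, 1.42 and 1.23, and all 10 had an adjusted p between 0.076 and 0.081.

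Among the 10 genes of smallest p that were lower at day 60, 5 are known from the outer epidermis. Asprv1, the protease that processes filaggrin, read 14.37 and 14.42 at day 60 and 15.51 and 15.49 at day 20, a difference of −1.11 ± 0.13 (SE). Klk5, a protease of corneocyte shedding, read 10.96 and 10.64 at day 60 and 12.67 and 12.35 at day 20. In both genes the arrays of a day agreed closely and the days were clearly separate. Cysrt1, Trex2 (a nuclease of keratinocytes) and Sdr9c7 (an enzyme of barrier lipids) differed by −1.61, −1.55 and −1.67. Cd209a, a lectin of dendritic cells, read 6.69 and 6.69 at day 60, below the filter level, against 8.55 and 8.27 at day 20. Clec4g, another C-type lectin, read 7.13 and 7.20 at day 60, also below it, and 8.79 and 8.76 at day 20. Gm94, Ly6g6e and Gramd3 differed by −2.13, −1.32 and −1.27, and the second probe of Gramd3 pointed the other way at 0.22. All 10 had an adjusted p of 0.076 (limma, Benjamini-Hochberg).

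Genes of the cornified envelope and epidermal differentiation were lower at day 60 almost without exception. Of 42 tested, 40 were lower and 2 higher, with a median difference of −1.05 beside 0.03 over all genes. There were 19 members apart and lower, beside 4.21% of all genes, and 0 apart and higher. In the lower direction 28 had an unadjusted limma p under 0.05, beside 9.68% of all genes. The median was −1.09 without replicate 1 of day 20 and −0.80 without replicate 2, so the day 20 array that stood apart did not carry it. Alox12b, a lipoxygenase of the lipid barrier, read 9.86 and 9.80 at day 60 and 11.22 and 11.12 at day 20, a difference of −1.34 ± 0.17 (SE; limma, adjusted p = 0.076). Krt77, a keratin of sweat ducts and suprabasal epidermis chosen after its values were seen, read 8.05 and 9.22 at day 60 against 13.29 and 10.84 at day 20. Its days did not overlap, but the 2 day 20 arrays were themselves over 2 log2 units apart, and its difference of −3.43 was −2.20 without replicate 1. The mean of the 42 genes was 12.78 and 13.10 at day 20, 11.87 and 11.84 at day 38 and 11.86 and 11.82 at day 60, which puts the step between days 20 and 38. In bulk tissue, fewer cells of a type and less RNA per cell cannot be told apart.

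Basal keratinocyte genes did not share that direction. Of 13 tested, 7 were higher and 6 lower, 0 were apart in either direction, and the median difference was 0.02. That median was the difference of Krt14, which lay near the top of the scale, where differences could not show. Itgb4, the integrin chain that anchors basal cells to the basement membrane, read 13.90 and 14.01 at day 60 and 13.14 and 13.08 at day 20, a difference of 0.84 ± 0.22 (SE; limma, adjusted p = 0.114). Its day 60 arrays were above both day 20 arrays, by less than 2-fold. Its partner chain Itga6 differed by 0.97, or 0.42 without replicate 1 of day 60. The plakin Dst differed by 0.73, with probes that disagreed in direction. Krt6b, Krt6a and Krt16 of the same list, chosen after their values were seen, differed by −1.34, −0.93 and −0.65. Among genes of lipid synthesis in sebaceous glands and epidermis, 14 of 20 were lower, with a median of −0.11. Dgat2, which completes triglycerides, read 12.67 and 12.59 at day 60 and 14.14 and 13.54 at day 20, and Plin2, a coat protein of lipid droplets, was 2.29-fold lower, while Srebf1, a regulator of lipid synthesis, differed by 0.66.

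Hair shaft genes were the epidermal group with the widest differences. Of 25 hair keratins and keratin-associated proteins tested, 24 were lower at day 60, 19 of them apart beside 4.21% of all genes. The median difference was −2.29. Krt26, a keratin of the inner root sheath, read 7.40 and 7.54 at day 60 and 10.46 and 11.40 at day 20, a difference of −3.46 ± 0.63 (SE; limma, adjusted p = 0.091). Krtap9-3, a cysteine-rich protein of the hair shaft, read 7.66 and 8.21 at day 60 and 10.26 and 12.21 at day 20. The day 60 values lay near the filter level and both day 20 values far above it. Krtap14 differed by −2.29, with both day 60 values below the filter level. Krtap1-5 and the root sheath keratin Krt27, chosen after their values were seen, were 19.9-fold and 11.4-fold lower. Keratin-associated proteins form families of near-identical genes, so a probe may read several of them. The median of the list was −2.92 without replicate 1 of day 20 and −1.66 without replicate 2. The mean level was 10.28 and 11.67 at day 20, 10.21 and 12.00 at day 38 and 8.64 and 9.04 at day 60, so here the lower level was seen at day 60 and not at day 38. Signals of the hair cycle showed no common direction, with 7 of 13 higher and a median of 0.04. Sfrp1, a secreted Wnt antagonist, read 11.20 and 10.50 at day 60 and 9.97 and 9.71 at day 20, the Wnt ligand Wnt10a differed by 0.70 and Wnt5a by 1.32. The difference of Sfrp1 was 1.01, or 0.66 without replicate 1 of day 60, and that of Wnt5a was 0.72 without replicate 1 of day 20.

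**Figure D2:**
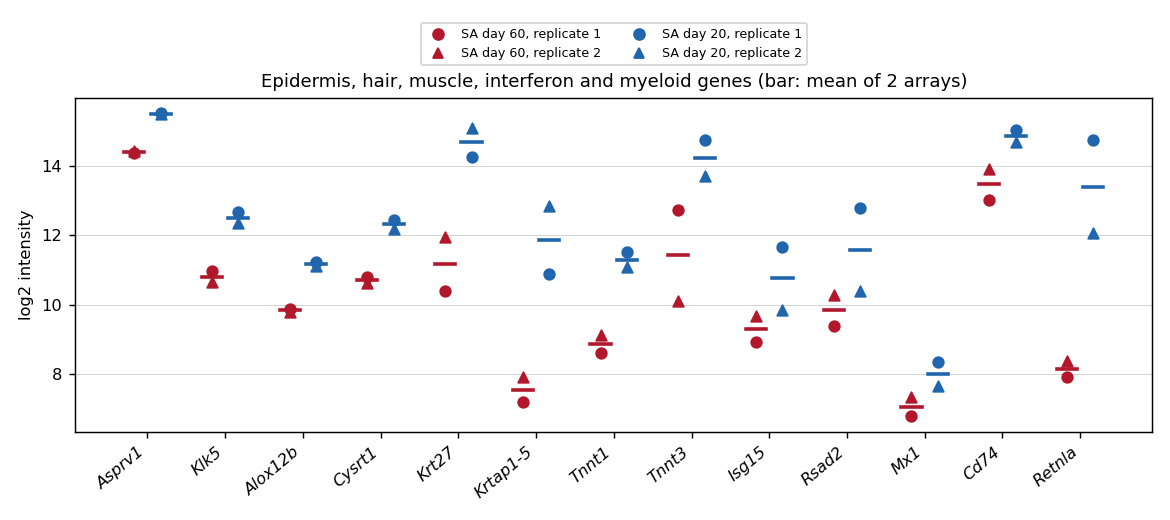
Log2 intensity of 13 genes of epidermis, hair, muscle, the interferon response and myeloid cells on each array, day 60 in red left of day 20 in blue, with circles for replicate 1, triangles for replicate 2 and a bar at the mean of 2 arrays. Asprv1, Klk5, Alox12b and Cysrt1 show close replicates and separate days, whereas Isg15 and Rsad2 are high on replicate 1 of day 20 and close to the day 60 level on replicate 2.

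Pigment genes read higher at day 60, and most of the size of that difference came from 1 array. Of 16 tested, 15 were higher and 1 lower, 6 were apart and higher beside 4.19% of all genes, and the median difference was 1.24. The median was 0.41 without replicate 1 of day 20 and 2.17 without replicate 2. Dct, an enzyme of melanin synthesis, read 15.78 and 16.09 at day 60, against 10.83 on replicate 1 and 16.08 on replicate 2 of day 20. Tyr, the rate-limiting enzyme of that pathway, read 10.10 and 10.64 at day 60, against 6.89 and 10.59 at day 20. In both genes replicate 2 of day 20 lay within the range of day 60 and replicate 1 far below it. The value of Tyr on replicate 1 was also below the filter level. The 3 high values of Dct were near the top of the scale, where a gap between them could not show. Tyrp1, a related melanosome enzyme, read 14.51 and 14.74 at day 60 and 9.51 and 13.96 at day 20, and Mlana, a melanosome protein, 13.70 and 15.15 at day 60 and 10.53 and 13.31 at day 20. Both were apart, with adjusted p-values of 0.230 and 0.171 (limma, Benjamini-Hochberg), and their differences of 2.89 and 2.51 were 0.66 and 1.12 without replicate 1 of day 20. These 4 genes were chosen after their values were seen. By the naming rule, Gpr143, a melanosome receptor, differed by 1.96 (0.90 without replicate 1 of day 20), Myo5a, the motor that carries melanosomes, by 0.59 (0.35 without replicate 1 of day 60), and Mreg, which acts in melanosome transfer, by −0.62, the 1 member that was lower.

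Some of these promoters hold the M-box, the 7 letters TCATGTG that Mitf, the master factor of melanocytes, is known to bind. The search covered both strands, and on the other strand the motif reads CACATGA. In windows of 250 bases before to 50 after the gene start, taken from RefSeq on GRCm38.p6, 11 of the 16 pigment genes had a sequence and 5 held the motif (45.5%), against 1165 of 27025 genes (4.31%). The stretches below show it in the 3 enzymes of melanin synthesis, with the motif in capitals, 15 bases on either side and the strand of the gene.
Tyr, chr7:87493513-87493549, minus strand: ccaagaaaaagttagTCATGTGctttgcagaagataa
Tyrp1, chr4:80834151-80834187, plus strand: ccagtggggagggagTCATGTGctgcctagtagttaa
Dct, chr14:118052376-118052412, minus strand: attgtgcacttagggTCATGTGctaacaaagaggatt
The copies shown start 22, 47 and 151 bases before the gene start in Tyr, Tyrp1 and Dct. A second copy in Dct starts 232 bases before it on the opposite strand (chr14:118052457-118052493). A match describes the letters of the window and is not evidence of binding in these tumours.

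Mitf and its activating receptor were separate between the days. Mitf read 9.94 and 10.48 at day 60 and 8.14 and 9.04 at day 20, a difference of 1.62 ± 0.33 (SE; limma, adjusted p = 0.096), and 1.17 without replicate 1 of day 20. Mc1r, the melanocortin receptor that raises Mitf activity, read 9.07 and 9.64 at day 60 and 6.88 and 8.13 at day 20. Both genes were higher on each day 60 array than on either day 20 array. The difference of Mc1r was 1.85, or 1.22 without replicate 1 of day 20, where its value lay below the filter level. Irf4, a factor of melanocytes and of lymphoid cells, went the other way, at 7.98 and 8.11 on day 60 and 10.38 and 8.66 on day 20, and its difference of −1.48 was −0.62 without replicate 1 of day 20. The 7 regulators tested had a median of 0.48, with 5 higher and 2 lower, and the median was 0.18 without replicate 1 of day 20 and 0.75 without replicate 2.

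Neural crest genes were also higher at day 60, 11 of 12 with a median difference of 0.97. Of the 12, 4 were apart and higher, beside 4.19% of all genes, and 0 apart and lower. The median was 0.47 without replicate 1 of day 20 and 1.65 without replicate 2. Nes, an intermediate filament of neural progenitors, read 12.56 and 11.79 at day 60 and 8.48 and 10.67 at day 20, a 6.06-fold difference with an adjusted p of 0.127 (limma). Mcam, an adhesion molecule of melanoma and endothelium, read 13.64 and 13.95 at day 60 and 10.57 and 12.90 at day 20. In both the lowest value was that of replicate 1 of day 20, and without it their differences were 1.50 and 0.90. Ngfr, the nerve growth factor receptor of neural crest cells, differed by 0.97, or 0.45 without it. S100b, a calcium-binding protein of Schwann cells and melanocytes, read 8.63 and 8.42 at day 60 and 5.64 and 7.05 at day 20, where both values lay below the filter level.

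All 14 genes of MAPK output tested were higher at day 60, 9 of them apart beside 4.19% of all genes. The median difference was 1.20. Ccnd1, the D-type cyclin that links ERK to the cell cycle, read 15.99 and 15.91 at day 60 and 13.83 and 14.77 at day 20, a difference of 1.65 ± 0.32 (SE; limma, adjusted p = 0.091). Ier3, an immediate target of ERK, read 14.97 and 14.92 at day 60 and 12.53 and 13.81 at day 20. The day 60 arrays of both genes agreed within 0.1 and lay above both day 20 arrays, those of Ccnd1 near the top of the scale. The feedback inhibitors followed the same order, with Spred1 2.07-fold higher and, among genes chosen after their values were seen, the ERK phosphatase Dusp6 2.06-fold, Spry4 2.7-fold and the ETS factor Etv4 3.65-fold. Without replicate 1 of day 20 the log2 differences of Ier3, Dusp6, Spry4 and Etv4 were 1.14, 0.54, 0.56 and 0.96, in place of 1.78, 1.04, 1.44 and 1.87. The median of the list was 0.59 without replicate 1 of day 20 and 1.88 without replicate 2. Its mean level was 9.95 and 11.01 at day 20, 11.01 and 10.68 at day 38 and 11.48 and 11.69 at day 60. On the day 60 and day 20 arrays the melanocyte markers followed the same order as these genes. On the day 38 arrays the orders differed. The markers were 10.98 and 11.56 in SA and 9.70 and 9.60 in WT, with MAPK output at 10.77 and 11.16 in WT. The part of the melanocyte markers in the difference between day 60 and day 20 was not tested.

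**Figure D3:**
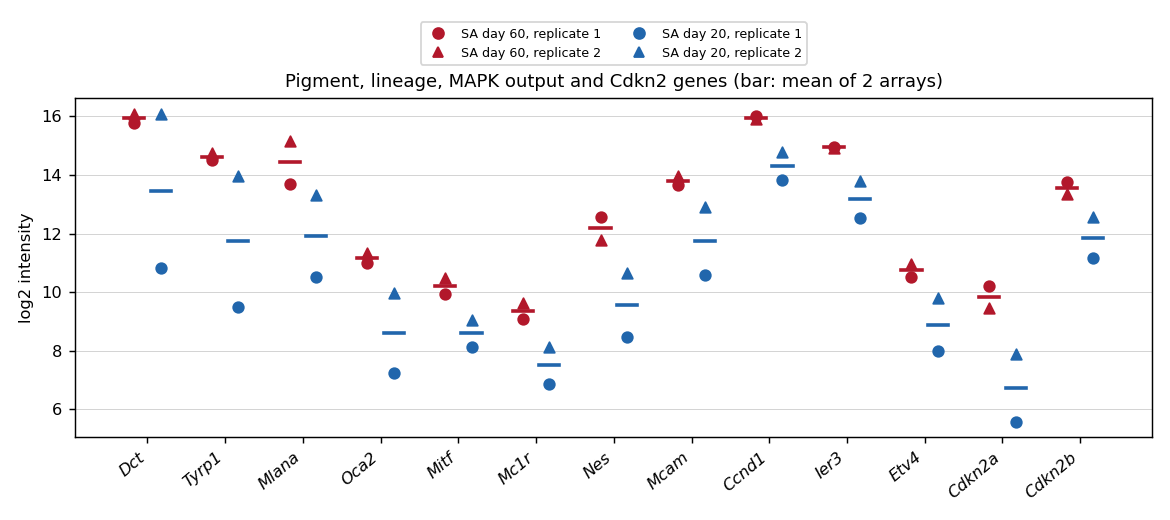
Log2 intensity of 13 genes of pigment, melanocyte lineage, MAPK output and the Cdkn2 locus on each array, day 60 in red left of day 20 in blue, with circles for replicate 1, triangles for replicate 2 and a bar at the mean of 2 arrays. Replicate 1 of day 20 is the lowest value for every gene shown, and Dct alone has replicate 2 of day 20 within the day 60 range.

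Cdkn2a, whose products restrain CDK4 and CDK6 and stabilise p53, read 10.21 and 9.47 at day 60 and 5.58 and 7.88 at day 20, a difference of 3.11 ± 0.74 (SE; limma, adjusted p = 0.108). Its 2 probes differed by 0.71 and 3.11, and the difference was 1.96 without replicate 1 of day 20. The value of Cdkn2a on that array lay below the filter level of 7.24, where a size is poorly determined. The neighbouring inhibitor Cdkn2b read 13.77 and 13.35 at day 60 and 11.15 and 12.55 at day 20. Both genes were apart, and the difference of Cdkn2b was 1.71, or 1.01 without replicate 1 of day 20. The other CDK inhibitors, Rb and p53 targets were split in direction: 9 of 20 were higher and 11 lower, with a median of −0.11. Trp53inp1, a p53 target, differed by −0.78. Of all 22 genes of the list, 2 higher (Cdkn2a and Cdkn2b) and 5 lower had an unadjusted limma p under 0.05. Over all genes tested the shares were 13.8% higher and 9.68% lower. The secretome of senescent cells was mixed, with 14 of 31 higher and a median of −0.08. It had 4 genes apart in each direction, beside 4.19% of all genes higher and 4.21% lower. Il1a, an upstream cytokine of that secretome, read 7.84 and 8.41 at day 60 and 9.77 and 9.31 at day 20, and Timp1, chosen after its values were seen, 15.72 and 14.54 at day 60 and 11.97 and 14.03 at day 20. The difference of Timp1 was 2.13, or 1.11 without replicate 1 of day 20.

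Mitosis genes were lower at day 60, 13 of 14 with a median difference of −0.81. Of the 14, 2 were apart and lower, beside 4.21% of all genes. In that direction 8 had an unadjusted limma p under 0.05, beside 9.68% of all genes. Kif23, a kinesin of cytokinesis, read 8.95 and 9.33 at day 60 and 10.04 and 10.43 at day 20, a difference of −1.10 ± 0.29 (SE; limma, adjusted p = 0.120). Nusap1, which bundles spindle microtubules, differed by −0.98, and Kif11, the motor that separates spindle poles, by −0.81. The median was −1.25 without replicate 1 of day 20 and −0.44 without replicate 2. Their mean level was 9.80 and 10.58 at day 20, 10.61 and 11.07 at day 38 and 9.32 and 9.58 at day 60, so the highest levels were those of day 38. DNA replication genes were lower in 13 of 19, with a median of −0.19 and 0 apart. Rrm2, the regulated subunit of ribonucleotide reductase, read 8.34 and 8.37 at day 60 and 8.87 and 9.23 at day 20.

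The receptor that defines the genotype gave little to compare. Ifnar1 lay below the filter, at 5.03 and 5.72 on day 60 and 5.08 and 4.87 on day 20, and so did Ifnb1, a type I interferon, at 5.87 and 6.42 on day 60 and 6.43 and 7.41 on day 20. The partner chain Ifnar2 read 9.35 and 9.35 at day 60 and 8.47 and 8.92 at day 20, a difference of 0.65 ± 0.21 (SE; limma, adjusted p = 0.144). Of the 12 genes of the receptor pathway tested, 6 were higher and 6 lower, with a median of −0.01. The difference of Ifnar2 was 0.43 without replicate 1 of day 20. Socs3, an inhibitor of cytokine receptors, differed by 0.90, or 0.51 without that array. Btrc, the ligase subunit that marks the receptor for degradation, differed by 0.40, with 2 probes that disagreed in direction.

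Interferon-stimulated genes read lower at day 60, 26 of 28 with a median difference of −0.87, and 9 were apart beside 4.21% of all genes. Much of the size came from the array that was low in melanocyte genes. The mean level of the 28 genes was 9.71 and 10.34 at day 60, against 11.55 on replicate 1 and 10.22 on replicate 2 of day 20, so the second day 20 array lay within the range of day 60. The median was −0.34 without replicate 1 and −1.58 without replicate 2. Between the day 60 arrays it was −0.56 without replicate 1 and −1.31 without replicate 2. Isg15, a ubiquitin-like modifier chosen after its values were seen, read 8.93 and 9.67 at day 60 and 11.66 and 9.86 at day 20. Rsad2, an antiviral enzyme chosen likewise, read 9.40 and 10.28 at day 60 and 12.78 and 10.38 at day 20. In both, replicate 2 of day 20 exceeded the nearest day 60 array by 0.2 or less, and without replicate 1 the differences of −1.46 and −1.74 were −0.56 and −0.54. Ifit3, an RNA-binding antiviral protein also chosen after its values were seen, read 12.31 and 13.70 at day 60 and 14.71 and 13.10 at day 20. Its days overlapped. By the naming rule, Ddx58, the RNA sensor RIG-I, differed by −0.65, the antiviral GTPase Mx1 by −0.94 and the nuclear body protein Sp100 by −1.48, with adjusted p-values of 0.128, 0.144 and 0.153 (limma). Without replicate 1 of day 20 those of Mx1 and Sp100 were −0.59 and −0.69.

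The response element behind this group was searched as GAAA, any 2 bases and again GAAA, or TTTC, any 2 bases and again TTTC for the other strand, with overlapping copies allowed. Of the 28 genes, 19 had a RefSeq promoter window on GRCm38.p6 and 8 held the motif (42.1%), against 1079 of 27025 genes (3.99%). The stretches below are those of Isg15, Ifit3 and Rsad2, and of Bst2, a tetherin of virus particles also chosen after its values were seen. Bst2 differed by −1.28 (−0.37 without replicate 1 of day 20). The motif copies are in capitals, with 15 bases on either side.
Isg15, chr4:156200860-156200911, minus strand: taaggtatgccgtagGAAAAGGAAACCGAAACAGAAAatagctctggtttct
Ifit3, chr19:34583358-34583431, plus strand: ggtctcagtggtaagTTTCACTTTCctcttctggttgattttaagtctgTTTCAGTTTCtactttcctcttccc
Rsad2, chr12:26456548-26456587, minus strand: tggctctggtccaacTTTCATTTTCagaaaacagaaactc
Bst2, chr8:71537572-71537617, minus strand: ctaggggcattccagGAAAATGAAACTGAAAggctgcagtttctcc
Isg15 has 3 overlapping copies, Bst2 has 2 that overlap, and Ifit3 has 2 that are apart. The motif's presence describes these windows only.

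Antigen presentation genes were mostly lower at day 60. Class II and dendritic cell genes were lower at day 60 in 9 of 12, with a median of −0.87 that was −0.95 without replicate 1 of day 20 and −0.84 without replicate 2, but −0.45 without replicate 1 of day 60 and −1.36 without replicate 2. Cd74, the invariant chain of class II molecules, read 13.02 and 13.92 at day 60 and 15.04 and 14.68 at day 20, a difference of −1.39 ± 0.33 (SE; limma, adjusted p = 0.105), with the days separate. H2-DMa, which loads peptides onto class II, was 1.9-fold lower, its difference of −0.93 being −0.58 without replicate 1 of day 60. H2-Aa and H2-Eb1, class II chains chosen after their values were seen, read 7.54 and 8.08, and 8.22 and 8.71, at day 60. At day 20 they read 13.23 and 14.15 on replicate 1 but 9.05 and 9.41 on replicate 2. Both were thus apart yet differed by over 4 log2 units within day 20. The replicates of day 38 were widely split as well. H2-Aa read 8.85 and 12.36 in SA and 11.46 and 8.19 in WT. H2-Eb1 read 9.38 and 13.22 in SA and 12.18 and 8.24 in WT. Class I genes were lower in 14 of 18 with a median of −0.27 that was 0.13 without replicate 1 of day 20. The interferon gamma response had 15 of 18 lower, a median of −0.39 that was 0.02 without that array, and a difference of −1.34 in the GTPase Gbp3 that was −0.78 without it.

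Myeloid genes differed one by one. Retnla, a secreted marker of alternatively activated mouse macrophages, read 7.91 and 8.38 at day 60 and 14.73 and 12.07 at day 20. Its difference was −5.26 ± 0.80 (SE; limma, adjusted p = 0.087), which is 38.3-fold lower, or −3.93 without replicate 1 of day 20. Its day 38 arrays, at 14.38 and 15.22, were as high as those of day 20. Chil3 and Arg1 of the same list, chosen after their values were seen, differed by 1.89 ± 0.58 (SE) and −0.58. Lyz2, the lysozyme of myeloid cells, was 1.9-fold lower, but its 3 probes past the filter differed by −0.93 to −0.07. Trem2, a lipid receptor of macrophages, went the other way, at 11.79 and 11.33 on day 60 and 10.76 and 10.79 on day 20. Over 19 macrophage and monocyte genes, 14 were lower with a median of −0.34, which ranged from −0.92 without replicate 2 of day 20 to −0.09 without replicate 2 of day 60. The 12 neutrophil genes had 7 higher and 5 lower and a median of 0.20, which was −0.16 without replicate 1 of day 20 and −0.30 without replicate 1 of day 60. Il1r2, a decoy receptor of interleukin-1, differed by −1.66, or −0.73 without replicate 1 of day 20. T cell genes had 10 of 15 lower with a median of −0.28, cytotoxic lymphocyte genes 5 of 6 lower with a median of −0.24 that was 0.52 without replicate 1 of day 20, and B cell genes 4 of 7 lower with a median of −0.04. Prf1, the pore-forming protein of killer cells, was the cytotoxic gene that was higher, at 11.08 and 12.53 on day 60 and 10.48 and 10.23 on day 20, a difference of 1.45 that was 0.73 without replicate 2 of day 60.

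Mast cell genes were higher in 5 of 8, all 5 of them apart, beside 4.19% of all genes. The median was 1.09, or 0.99 without replicate 1 of day 20. Gata2, a factor of mast cell identity, read 11.69 and 11.15 at day 60 and 9.97 and 10.28 at day 20, a difference of 1.30 ± 0.26 (SE; limma, adjusted p = 0.094). Tpsb2, a tryptase of mast cell granules, read 12.98 and 12.44 at day 60 and 10.34 and 11.33 at day 20. Both genes were separate between the days, and the chymase Mcpt4, another granule protease, was lower, by a difference of −0.78 that was −0.52 without replicate 2 of day 60. Tpsab1, a tryptase chosen after its values were seen, read 15.54 and 14.03 at day 60, against 8.20 and 13.12 at day 20, and its difference of 4.13 was 1.67 without replicate 1 of day 20.

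All 25 skeletal muscle genes tested were lower at day 60, 21 of them apart beside 4.21% of all genes. Their median of −2.41 was the most negative of the 40 lists. The 2 day 60 arrays differed from each other by as much. The mean of the 25 genes was 12.14 and 9.52 at day 60 and 13.54 and 12.59 at day 20, and the median was −0.92 without replicate 2 of day 60 and −3.53 without replicate 1. Tnnt1, the troponin T of slow fibres, read 8.60 and 9.12 at day 60 and 11.51 and 11.08 at day 20, a difference of −2.43 ± 0.55 (SE; limma, adjusted p = 0.099). Tnnt3, that of fast fibres, read 12.74 and 10.11 at day 60 and 14.76 and 13.71 at day 20. Tnnt1 had close replicates at both days, while Tnnt3 had a wide gap within day 60, and its difference of −2.81 was −1.49 without replicate 2 of day 60. Myh8, the perinatal myosin, read 8.57 and 8.85 at day 60 and 13.82 and 9.70 at day 20, a difference of −3.05 that was −0.99 without replicate 1 of day 20. All 16 adipocyte genes were lower as well, 3 of them apart, beside the same 4.21% of all genes. Their median was −0.53, or −0.10 without replicate 1 of day 20 and −0.97 without replicate 2. Lpl, the lipase that takes up circulating fat, read 13.40 and 13.62 at day 60 and 15.60 and 14.72 at day 20, and Lep, which encodes leptin, differed by −1.73, or −1.12 without replicate 1 of day 20.

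Stromal genes had no shared direction. The 17 collagen chains had a median of 0.36, with Col16a1 0.76 higher and the fibrillar chains Col3a1 and Col1a1 each lower by a difference of −1.08, which for Col1a1 was −0.47 without replicate 1 of day 20. Of 27 genes of fibroblasts and matrix assembly, 12 were higher and 15 lower. Mfap4, an elastic fibre protein, read 9.24 and 9.69 at day 60 and 12.00 and 11.35 at day 20, a difference of −2.21 ± 0.32 (SE; limma, adjusted p = 0.084), while Fbln2, a basement membrane protein, read 14.44 and 14.06 at day 60 and 12.80 and 13.40 at day 20. Both were separate between the days, in opposite directions. The metalloproteinases and their inhibitors had 10 of 18 higher with a median of 0.06, and the gelatinase Mmp9 read 9.02 and 9.26 at day 60 and 10.45 and 10.06 at day 20. Endothelial genes had 10 of 18 higher, a median of 0.14, and Eng, a TGF-beta co-receptor of vessels, at 11.62 and 11.61 on day 60 and 9.95 and 10.94 on day 20, a difference of 1.18 that was 0.68 without replicate 1 of day 20.

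**Figure D4:**
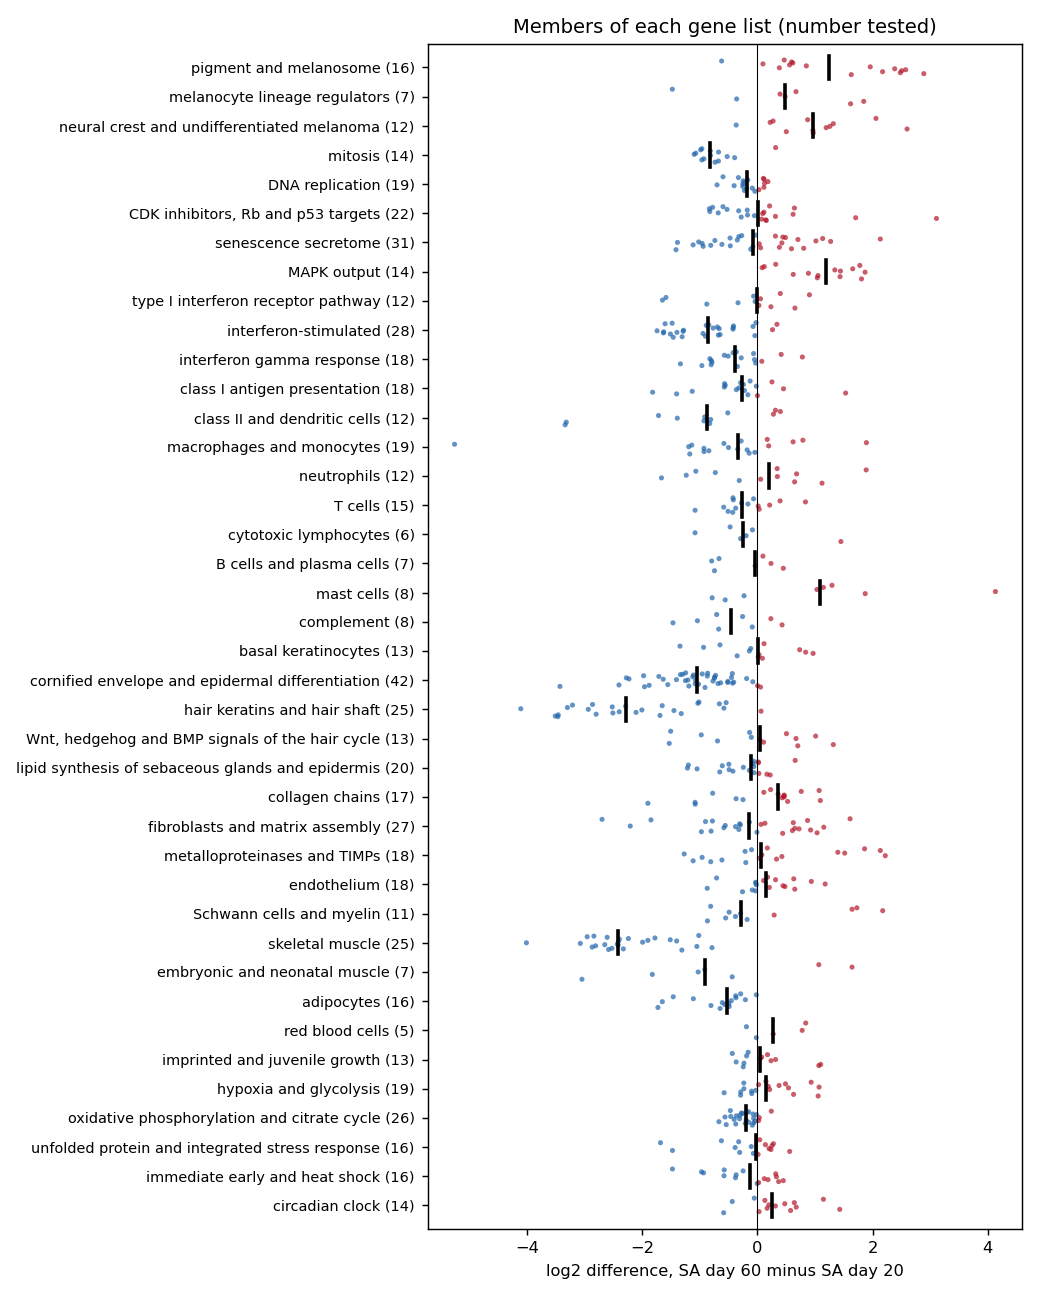
Each point is 1 tested gene of a list, with its log2 difference (day 60 minus day 20) on the x axis, red where higher and blue where lower at day 60, and a black bar at the median of the list; the number of genes tested is in parentheses. Muscle, hair and cornified envelope genes lie left of 0 almost entirely, MAPK output genes lie right of it entirely, and most other lists straddle it.

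The day 38 arrays of the same genotype lay between the days for many of these genes. Of the 980 genes apart between day 60 and day 20, 618 (63.1%) had a day 38 mean between the means of day 20 and day 60, against 35.3% of all genes tested. A gene whose outer means differ more has more room for a value between them, so the shares are a description. At list level, cornified genes had reached the day 60 level by day 38, hair, muscle and class II genes were still at the day 20 level, and mitosis genes peaked at day 38. Pigment genes, with means of 9.57 and 11.58 at day 20, 10.32 and 10.76 at day 38 and 11.76 and 12.08 at day 60, were highest at day 60. The SA arrays of day 38 differed from the rest in Xist and Eif2s3y, as given above, and its part in these courses was not tested.

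**Figure D5:**
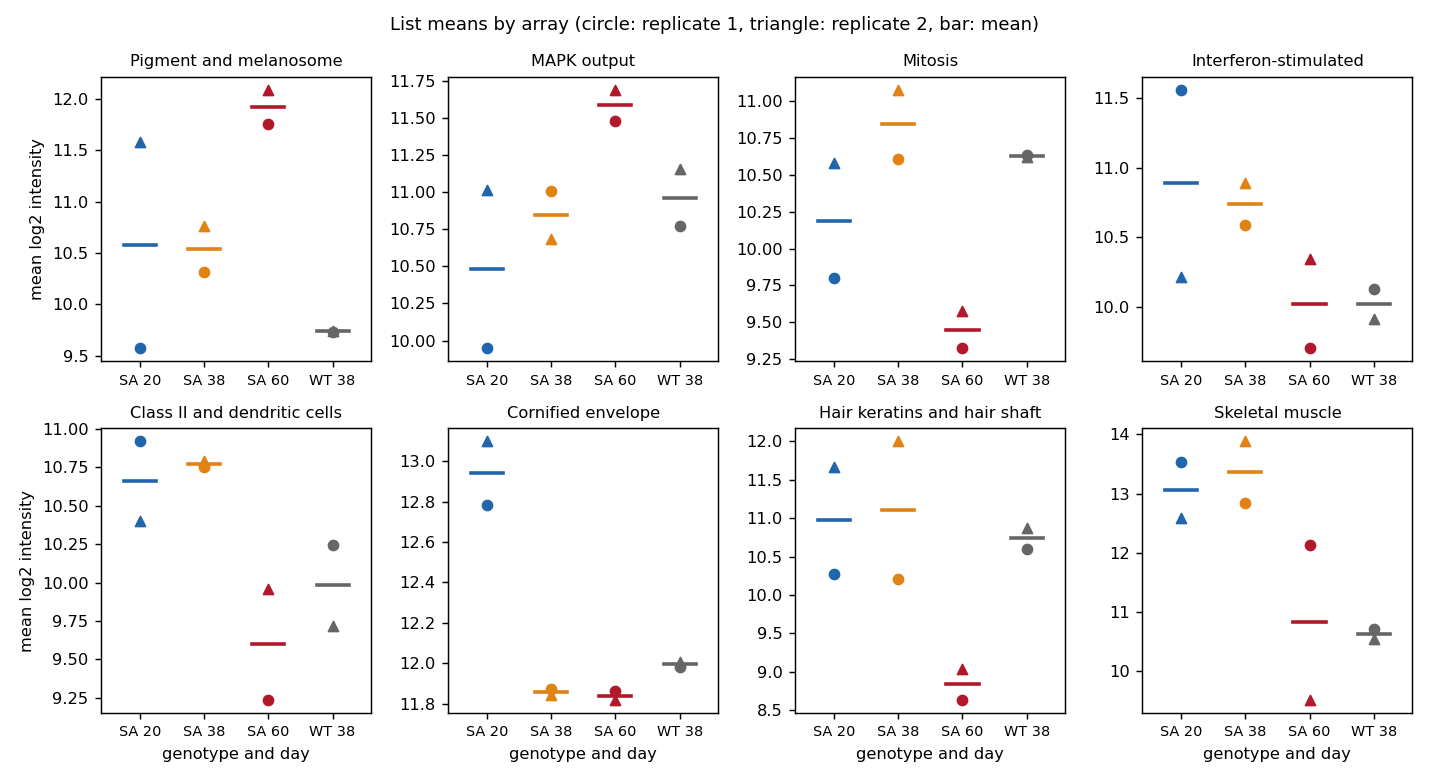
Mean log2 intensity of the tested genes of 8 lists on each array, for SA tumours at days 20, 38 and 60 and WT tumours at day 38 from left to right, with circles for replicate 1, triangles for replicate 2 and a bar at the mean; each panel has its own y axis, which does not start at 0. Cornified envelope genes sit near 13 at day 20 and near 12 in all other groups, and the 2 day 20 arrays lie far apart for pigment and interferon-stimulated genes.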

How the data were processed

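RNA from whole melanomas was labelled with biotin and hybridised to Illumina bead arrays, 1 sample per array, per the labels. The authors deposited linear intensity values (183.9 to 71767) for 25697 probes. Medians of 409.3 to 410 and an upper quartile of 1352 on every array were read as quantile normalization without background subtraction; the submitters' processing notes name GenomeStudio 1.8. A table of unnormalized signals, whose 16 columns no label ties to a sample, was not used. The labels' treatment protocol names Ifnar1-/- where the genotype field names Ifnar1SA; the genotype field was followed. 1 item of the mouse model is not reported here.

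Intensities were corrected with limma's normexp (saddle-point, offset 16) and put on the log2 scale. Probes with a mean above the 40th percentile (7.24) were kept, and the brightest stood for each gene: 11661 of which 10771 were named. The platform annotation gave 23978 probes 1 symbol, 0 several and 1719 none, and RefSeq GRCm38.p6 updated 0. limma 3.58.1 in R 4.3.3 fitted 4 group means to 8 arrays (4 residual degrees of freedom, 2.49 from the prior). Calls needed a p under 0.05 after Benjamini-Hochberg adjustment across the whole table. The fit was tested on simulated data.

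The comparison, its gene lists and the naming rule were chosen with earlier results of these data known. The rule took set single genes (Braf and Mki67 were not analysed here), the 10 genes of smallest p in each direction and the 3 of smallest p per list; 40 lists were described by counts and medians, and 5 of 135 genes so named had probes that disagreed in direction. Genes outside the rule are said to be chosen after their values were seen. Alternatives changed the background correction, the filter, the probe rule and the arrays fitted, used array weights, a variance trend or the replicate number as a block, and left out each array in turn; a threshold of 0.1 was chosen after seeing the data. The number of arrays limits the precision.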

Additional observations from a re-analysis of the deposited data

How the results depend on the processing

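The 0 calls (limma, Benjamini-Hochberg adjusted p under 0.05) held at that threshold under every alternative run except the fits without a day 20 array. Across the alternatives 1793 to 3562 genes had an unadjusted p under 0.05. Leaving out each array in turn gave 0 to 915 calls, 0 to 497 higher and 0 to 418 lower; the 6 calls without replicate 1 of day 20 were 3 and 3. A threshold of 0.1, chosen after seeing the data, gave 435 (245 higher, 190 lower). Genes apart by at least 2-fold numbered 306 higher without background correction, against 489, and 325 to 853 higher and 457 to 902 lower with an array left out. Lists with a median of at least 1 in size numbered 6, 3 without the filter and 4 to 10 with an array left out. Of 40 list medians, 9 and 4 changed sign without replicates 1 and 2 of day 20, and 12 and 2 without replicates 1 and 2 of day 60. Of the list medians under alternatives, 698 moved by less than the spread and 62 by more; of 169 gene differences, 9 changed sign under an alternative, and the cause was not tested. With an array left out, Dct ranged from −0.143 to 5.11, Tyr from −0.222 to 3.48, Slc7a11 from −0.328 to 1.26, Car2 from −0.539 to 2.22, Hbb-b2 from −0.937 to 1.49, Xcl1 from −1.34 to 0.397, Alas2 from −0.470 to 2.03 and Xist from −0.363 to 0.356; for Dct, Tyr, Slc7a11 and Car2 the sign changed without replicate 1 of day 20. Xist also changed sign with no background correction (0.00905) and an offset of 50 (0.00345), and Btrc as the mean of its probes (−0.0419). With the replicate number as a block there were 0 calls, with 2545 genes at an unadjusted p under 0.05 and a smallest adjusted p of 0.116. Deviations of same-numbered arrays correlated at −0.196 to 0.107 between groups, 0.0538 between days 60 and 20. With 2 arrays per group these values cannot decide whether the arrays were paired. Probes near background understate differences.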

Other observations

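Several of the differences of largest size lay in genes outside the lists, chosen here after their values were seen. Csn3, which encodes kappa-casein of milk, read 13.17 and 13.28 at day 60 and 6.80 and 10.98 at day 20. Galr2, a receptor of the neuropeptide galanin, read 10.94 and 9.18 at day 60 and 5.90 and 7.21 at day 20, a difference of 3.51 ± 0.66 (SE; limma, Benjamini-Hochberg adjusted p = 0.091). Both were separate between the days. The day 20 values of Galr2, and that of Csn3 on replicate 1, lay below the filter level of 7.24. Inhba, a subunit of activins, was 6.25-fold higher at day 60, Dhh, the hedgehog ligand of Schwann cells, 9.55-fold, the potassium channel Kcnn4 7.98-fold and Tbx2, a T-box repressor of Cdkn2a, 6.91-fold. For all 6, replicate 1 of day 20 was the lowest of the 4 arrays, and without it the log2 differences of Csn3, Dhh, Kcnn4 and Tbx2 were 2.24, 1.40, 1.41 and 1.48, in place of 4.33, 3.26, 3.00 and 2.79. In the other direction, Defb8, a beta-defensin, read 5.80 and 5.66 at day 60 and 9.33 and 13.44 at day 20, and was at 6.76 and 6.15 at day 38. Mup2, a major urinary protein of a large family of near-identical genes, read 6.60 and 7.09 at day 60 and 14.33 and 10.13 at day 20. Defb8 was high at day 20 and not at day 38, while Mup2, at 13.44 and 13.25, was still high at day 38. Fcer1g, a signalling chain of Fc receptors, read 6.43 and 6.88 at day 60 and 14.50 and 7.33 at day 20, so its difference lay in 1 array. The day 60 values of Defb8, Mup2 and Fcer1g were below the filter level, where sizes are poorly determined. The difference of Defb8 was −5.66, or −3.60 without replicate 2 of day 20, and that of Mup2 was −5.39, or −3.29 without replicate 1.

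Genes of the circadian clock and of stress gave smaller differences. Per2, a clock repressor, read 12.73 and 12.28 at day 60 and 11.66 and 10.50 at day 20, Bhlhe40, another repressor, was 2.21-fold higher, and Arntl, the activator they oppose, was lower by a difference of −0.59; 11 of 14 clock genes were higher. Without replicate 2 of day 20 the differences of Per2 and Arntl were 0.85 and −0.34, in place of 1.43 and −0.59, and without replicate 1 that of Bhlhe40 was 0.70, in place of 1.15. Chac1, which degrades glutathione under the integrated stress response, read 11.57 and 10.65 at day 60 and 12.25 and 13.33 at day 20, in a list of 16 genes with a median of −0.03. Of 26 genes of oxidative phosphorylation and the citrate cycle, 23 were lower, with a median of −0.20 and 0 apart. Hypoxia and glycolysis genes had a median of 0.15, with the vasodilator peptide Adm 1.91-fold higher. Complement genes were lower in 6 of 8 with a median of −0.46 that was −0.01 without replicate 1 of day 20. The 5 red cell genes had a median of 0.28 and 0 apart, and the sign depended on 1 array: it was −0.54 without replicate 1 of day 20 and −0.73 without replicate 1 of day 60. The 7 genes of embryonic and neonatal muscle had a median of −0.91 that was 0.14 without replicate 1 of day 20 and −1.50 without replicate 2, and the 13 imprinted and juvenile growth genes one of 0.05. Immediate early and heat shock genes had a median of −0.13 that was 0.06 without replicate 1 of day 20. Schwann cell and myelin genes had one of −0.29 that was 0.03 without replicate 1 of day 60. Ncam1 differed by 1.64, but by only 0.20 on a second, dimmer probe. Mag was lower by a difference of −0.49, or −0.23 without replicate 1 of day 60.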
